A study of Drosophila melanogaster with 6 samples.

Results

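The Cpr genes of Drosophila melanogaster encode cuticle proteins with the RR domain, the Rebers and Riddiford sequence that binds chitin. They were taken here as every gene in the count tables whose FlyBase identifier has a symbol made of Cpr and a digit, which gave 70 genes of 17476. Polyadenylated RNA was taken from wings dissected by hand from flies aged 3 days, and 3 libraries came from flies carrying the Poxn 70 allele and 3 from control flies, w1118 Canton-S. Poxn encodes a Pax-family transcription factor that specifies chemosensory bristles, and wings of the mutant lack the chemosensory sensilla of the anterior margin. Whole wings of many flies were pooled, so the sensilla were a small part of the tissue, and the sexes were not stated. The protocol in the labels names 8000 wings of 4000 flies for each library. This number cannot be squared with the total of dissected wings, so the wings behind a library are uncertain. The comparison asked which transcripts differ between wings with and without these sensilla, and the Cpr genes were measured in it as genes of the wing cuticle.

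Insect cuticle is a layered matrix of chitin fibres and proteins that epidermal cells secrete at their apical surface. The RR proteins lie in its chitin-bearing layer, the procuticle, and their main classes are known for different places: RR-1 proteins mostly for flexible cuticle and RR-2 proteins mostly for hard cuticle. Cuticle is laid down before and shortly after the adult emerges, in steps that use different sets of cuticle proteins, and much of the epithelium of the wing blade is lost soon after the wing expands. Cells that stay in the adult wing lie in the veins, the margin, the hinge and the sense organs. In such pooled tissue, fewer cells of a type and less RNA per cell cannot be told apart.

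Counts on genes numbered 14021115 to 16182811 in the libraries labelled Poxn and 10074860 to 14269486 in those labelled control. The mutated gene itself was counted more often in the mutant: Poxn had 92, 86 and 85 counts in the Poxn-labelled libraries, against 0, 6 and 3 in the control-labelled ones. Which bases the allele changes was not given in the sources used here, so these counts check neither the allele nor the labels. The groups are therefore named by their labels throughout. Libraries were scaled by TMM, a factor that sets the middle of the gene-by-gene ratios to no change, and levels are given as CPM, counts per 1000000 of the scaled library size. The TMM factors were unequal, at 1.76 to 1.86 in the Poxn-labelled libraries against 0.246, 0.522 and 1.28 in control replicates 1, 2 and 3. The 50 most abundant genes held 30.9% to 32.3% of gene counts in the Poxn-labelled libraries, against 62.4%, 60.4% and 37.7% in control replicates 1, 2 and 3. Genes with a transcript under 600 nt held 5.68% to 7.03% of gene counts in the Poxn-labelled libraries, against 30.6%, 20.6% and 16.6% in the control-labelled ones. Because 3 libraries stood on each side, an exact permutation test of a single gene could not go below p = 0.1, and the p-values given here come from a model fitted across all genes. Each replicate was stated to be an independent collection of wings, and the p-values measure only the spread between these samples.

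Most Cpr genes had few counts or none in these wings. No count was found for 12 of the 70 genes in any library, which allows up to 0.0997 to 0.942 CPM a library when 3 counts are taken as the limit of a count of 0. Such limits cover counting error only, since PCR copies are not independent molecules. Another 32 genes had counts but too few to be tested, and 18 of these had at most 10 counts over all 6 libraries. The test kept 26 Cpr genes among 8973 genes of all kinds. A gene passed this filter if at least 3 libraries held enough counts, so the 26 are not all of the family.

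The tested genes were not spread evenly over the chromosomes. All 5 genes of arm 3R were tested, against 12 of 35 on 3L, 9 of 21 on 2R, 0 of 5 on 2L and 0 of 4 on X. Many Cpr genes lie side by side, and 12 cytological bands with more than 1 member held 49 of the 70 genes. In band 62B all 3 genes were tested and in 97E both genes were tested. In bands 65E, 67F, 72E and 78C none of the genes was tested. Band 65A on 3L showed the strongest contrast between neighbours, since Cpr65Au was the most abundant member while the other 6 genes there had at most 3 counts in any library. Cpr transcripts were short, with a median longest transcript of 857 nt for the 70 genes and 1034 nt for the 26 tested ones, against 2053 nt for all tested genes. The predicted proteins had 93 to 1231 residues, with a median of 179.5.

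Cpr65Au (FBgn0042119) dominated the family in every library. It lies on the minus strand of 3L at 6131242 to 6132109 in the release 6 assembly (BDGP6), and encodes a protein of 106 residues. It had 406946, 296152 and 362935 counts in Poxn replicates 1, 2 and 3, against 1331294, 234193 and 521471 counts in control replicates 1, 2 and 3. Between 89.4% and 90.5% of all Cpr counts belonged to this gene in the Poxn-labelled libraries, against 97.2%, 99.4% and 76.4% in the control-labelled ones. It was the second or the third most counted of all genes in 5 libraries, and ranked 6 in control replicate 2. Per kilobase of transcript, which allows genes of different length to be compared, its level was 24325 ± 4919 CPM in the Poxn-labelled libraries and 311338 ± 419164 CPM in the control-labelled ones (SD, n = 3 each). The SD in control was larger than the mean, since control replicate 1 alone stood at 795030 CPM per kilobase. An antisense RNA gene, asRNA:CR46005, shares 491 of the 526 exonic bases of Cpr65Au, and was itself assigned 0 to 2 counts in each library.

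The other 69 Cpr genes together held 48391, 34365 and 38203 counts in the Poxn-labelled libraries, against 37867, 1445 and 160750 counts in control replicates 1, 2 and 3. As a share of gene counts this was 0.306%, 0.212% and 0.272%, against 0.293%, 0.0143% and 1.13%. The Poxn-labelled libraries lay close together and inside the range of the control-labelled ones, which had both the lowest and the highest share.

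**Figure D1:**
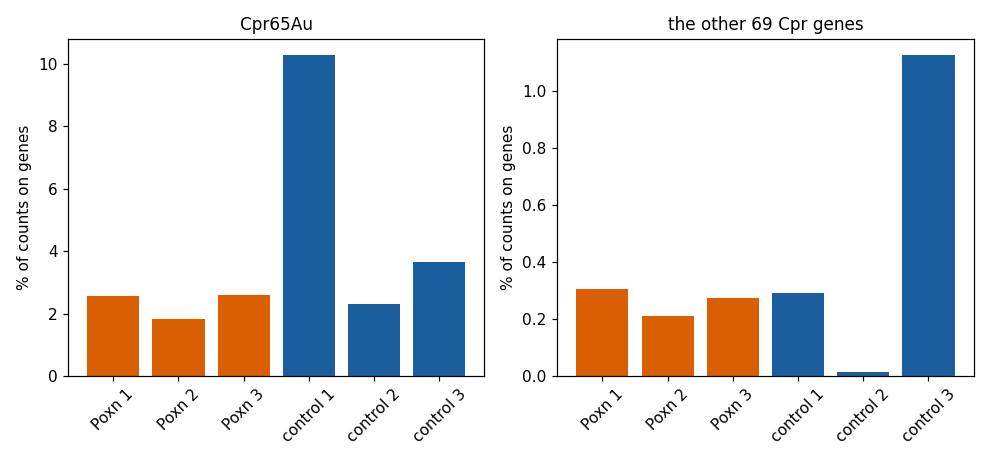
Share of gene counts, in percent, held by Cpr65Au (left) and by the other 69 Cpr genes (right), 1 bar for each library, with the Poxn-labelled libraries in orange and the control-labelled ones in blue. Cpr65Au reached 10.3% in control replicate 1, and the other genes together were at 0.0143% in control replicate 2 against 1.13% in control replicate 3.

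Next in level after Cpr65Au stood Cpr62Bb and Cpr49Ae in the Poxn-labelled libraries, at 270 ± 37.4 and 261 ± 112 CPM per kilobase (SD, n = 3), a difference smaller than their spread. In the control-labelled libraries Cpr49Ae averaged 2360 ± 2766 CPM per kilobase, and the order of Cpr49Ae, Cpr97Eb and Cpr92F could not be separated from the spread either. The 12 genes with the highest mean level per kilobase were, in order, Cpr65Au, Cpr49Ae, Cpr97Eb, Cpr92F, Cpr62Bb, Cpr100A, Cpr92A, Cpr62Bc, Cpr67B, Cpr49Ah, Cpr50Cb and Cpr60D. The order of the 26 genes was nearly the same in any pair of Poxn-labelled libraries, with a rank correlation of 0.962 to 0.986, and in control replicates 1 and 3 (0.954). Control replicate 2 kept little of that order, with correlations of 0.373 and 0.282 to control replicates 1 and 3. These correlations are descriptions over 26 genes of the same libraries.

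**Figure D2:**
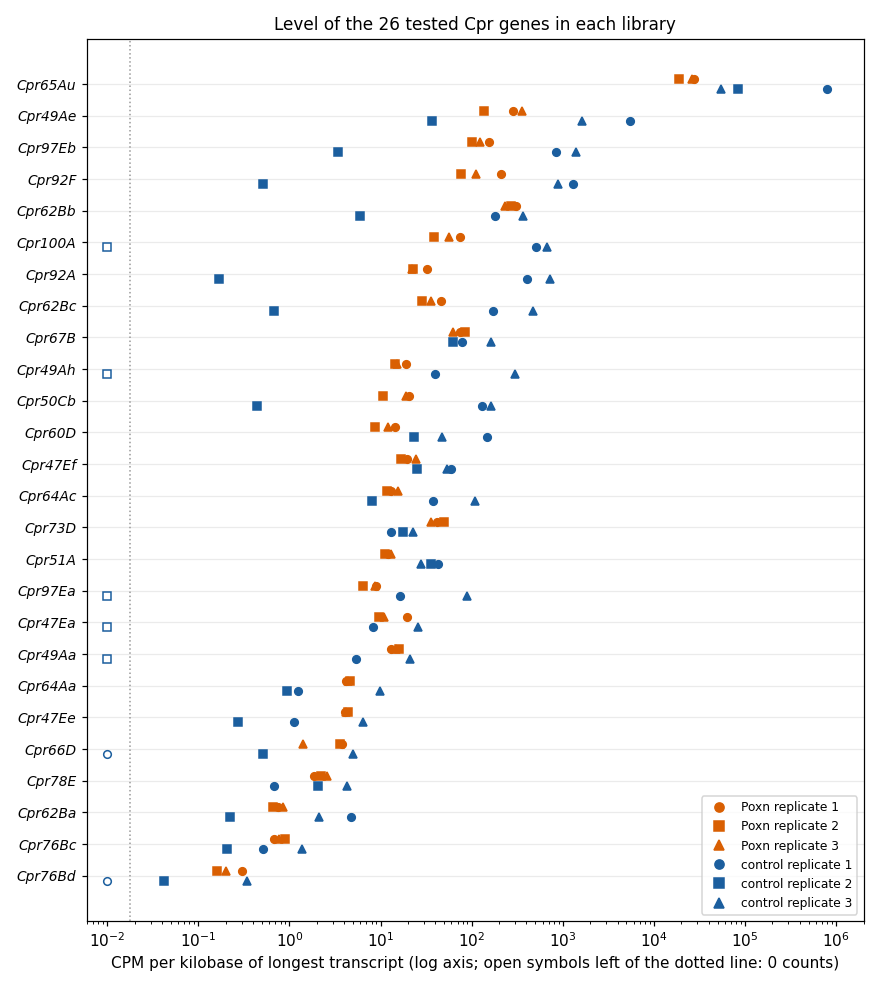
Level of the 26 tested Cpr genes in each library, in CPM per kilobase of the longest transcript on a log axis, with Poxn-labelled libraries in orange and control-labelled libraries in blue (circle, square and triangle for replicates 1, 2 and 3; open symbols are 0 counts). The orange symbols of a gene lie close together, while the blue square of control replicate 2 lies far to the left for 13 genes.

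The spread among replicates was the plainest feature of the family. The SD of log2(CPM + 1) over 3 libraries had a median of 0.231 in the Poxn-labelled libraries and 1.83 in the control-labelled ones, against 0.181 and 0.640 for all tested genes. All 26 Cpr genes were more variable in control, as were 92.2% of all tested genes. The most variable in control were Cpr92F, Cpr100A and Cpr92A, with SDs of 5.78, 5.57 and 5.21. Cpr92F and Cpr49Ae also varied most among the Poxn-labelled libraries, with SDs of 0.728 and 0.717, followed by Cpr66D at 0.560. Cpr51A was the steadiest in control under TMM, with an SD of 0.106 in the Poxn-labelled libraries and 0.286 in the control-labelled ones.

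**Figure D3:**
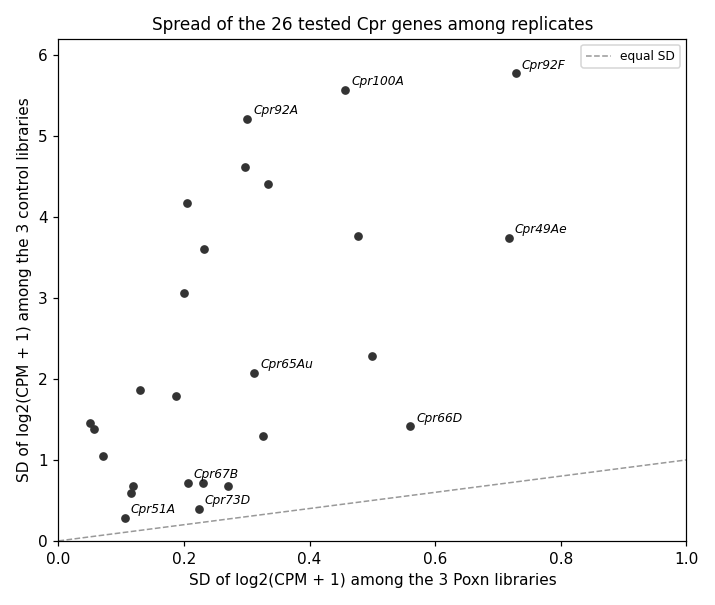
SD of log2(CPM + 1) among the 3 Poxn-labelled libraries (horizontal axis) and among the 3 control-labelled libraries (vertical axis), 1 point for each of the 26 tested Cpr genes, with a dashed line of equal SD. Every point lies above the line, and Cpr92F, at 0.728 and 5.78, lies farthest up.

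Control replicate 2 was nearly empty of a set of Cpr transcripts that were present in every other library. Cpr100A had 2828, 1618 and 2043 counts in the Poxn-labelled libraries, against 2210, 0 and 16685 counts in control replicates 1, 2 and 3. Cpr92F had 10849, 4320 and 5379 counts, against 7656, 5 and 29959. By counts, both genes were lowest in control replicate 2 and highest in control replicate 3, with the Poxn-labelled libraries between them. Of the 26 tested genes, 13 had a level in control replicate 2 under 5% of that in control replicate 3, where 2.92% of all tested genes did. The 13 were Cpr47Ea, Cpr47Ee, Cpr49Aa, Cpr49Ae, Cpr49Ah, Cpr50Cb, Cpr62Bb, Cpr62Bc, Cpr92A, Cpr92F, Cpr97Ea, Cpr97Eb and Cpr100A. All 13 had their lowest level of the 6 libraries in control replicate 2, which follows in part from how they were picked. Of the 26 tested Cpr genes, 18 were lowest there, where 26.8% of all tested genes were. In that library 16 tested Cpr genes had 5 counts or fewer, and 5 of them had 0. The share of all tested genes with so few counts there was not taken, so these numbers are only a description. Other members were well counted in the same library, with 234193 counts for Cpr65Au, 334 for Cpr67B and 251 for Cpr73D. Median transcript lengths were 1120 nt for the 13 genes and 1010 nt for the other 13. The counts of calls and the values of the main Cpr genes are therefore also given without control replicate 2, and what set that library apart was not tested.

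No Cpr gene met the criterion of the study, a difference of more than 4-fold with an adjusted p under 0.01, in either direction, by edgeR's quasi-likelihood test with Benjamini-Hochberg adjustment. The criterion was met by 0.0557% of all tested genes for higher and 0.602% for lower levels in the Poxn-labelled libraries. The study applied it to DESeq2's Wald test, and a DESeq2 fit made here put 2 Cpr genes past it as lower. These were Cpr65Au and Cpr60D, where 7.5% of all tested genes passed as lower. At an adjusted p under 0.05 by edgeR, 2 Cpr genes were lower in the Poxn-labelled libraries and 0 were higher, where 4.95% and 2.69% of all tested genes passed. The 0 genes for higher levels compare with 1 at an unadjusted p under 0.05, with 1 by DESeq2 (Cpr73D) and with 1 by limma voom at an adjusted p under 0.05. DESeq2 and limma voom called 8.01% and 2.49% of all tested genes higher. With the unadjusted p by edgeR, 6 Cpr genes were lower, where 17.8% of all tested genes were lower and 14.1% higher. The fold changes, given as log2 of Poxn over control, were below 0 for 18 of the 26 genes, where 49.7% of all tested genes were. Their median was -1.54, against 0.0072 over all tested genes. A fold change beyond 4-fold lower was found for 11 of the 26 genes, where 8.63% of all tested genes had one, and no Cpr gene was more than 4-fold higher. With library totals in place of TMM the median over all tested genes moved to 1.39 and that of the Cpr genes to 0.032, so that the distance between them, -1.36, was near the -1.55 under TMM. It was smaller in other fits, at -0.74 with an adjustment for transcript length, where the medians were -0.79 for the Cpr genes and -0.054 for all genes, and at -0.60 without control replicate 3, where they were -0.56 and 0.049. With library totals the split into 18 genes below 0 and 8 above it became 12 and 14.

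By mean level per kilobase, the 2 genes past the adjusted threshold ranked 12 (Cpr60D) and 16 (Cpr51A) in the family. Cpr51A (FBgn0033942), on 2R, had 7.96, 7.24 and 8.54 CPM in the Poxn-labelled libraries, against 27.6, 23.4 and 18.3 CPM in control replicates 1, 2 and 3. Under TMM, all Poxn-labelled libraries lay below all control-labelled ones, and the control libraries lay close together, control replicate 2 included. Its log2 fold change was -1.54 with a standard error of 0.31, and its adjusted p by edgeR's quasi-likelihood test was 0.0333. With library totals its log2 fold change was 0.031 while the median gene stood at 1.39, so the call rests on the scaling. Its levels were then 14.0, 13.5 and 15.9 CPM, against 6.80, 12.2 and 23.4 CPM. Control replicates 1 and 2 thus lay below every Poxn-labelled library on that scale, and control replicate 3 above. CG30197, on the opposite strand over the span of Cpr51A but with no shared exonic base, had 336, 254 and 245 CPM in the Poxn-labelled libraries, against 5205, 1845 and 851 CPM in the control-labelled ones. Whether the counting used strand was not stated, and the part of CG30197 in the counts of Cpr51A was not tested.

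Cpr60D (FBgn0050163), also on 2R, encodes the shortest predicted protein of the family, with 93 residues. It had 8.39, 5.02 and 7.05 CPM in the Poxn-labelled libraries, against 85.4, 13.5 and 27.4 CPM in control replicates 1, 2 and 3. Under TMM, all Poxn-labelled libraries lay below all control-labelled ones, of which replicate 1 was the highest, while by library totals the groups overlapped. Its log2 fold change was -2.62 with a standard error of 0.65 and an adjusted p of 0.0477 by edgeR's quasi-likelihood test. DESeq2 gave -2.79 with an adjusted p of 0.00113. Neither gene stayed past the threshold without control replicate 1, where the adjusted p was 0.0519 for Cpr51A and 0.0682 for Cpr60D by edgeR, nor with any 1 of the Poxn-labelled libraries left out. Their log2 fold changes were then -1.39 and -1.59 without control replicate 1, and -1.47 to -1.59 for Cpr51A and -2.43 to -2.78 for Cpr60D without a Poxn-labelled library. Calls fell for all genes in these fits. Of all tested genes, 1.86% were lower without control replicate 1 and 0.427% to 0.545% without a Poxn-labelled library, against 4.95% with all libraries. An adjustment for the trend of counts with transcript length also ended both calls, with log2 fold changes of -0.34 and -0.95.

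Among the 26 genes tested with all 6 libraries, Cpr92A (FBgn0038714), on 3R, had the largest fold change. It had 36.4, 25.5 and 24.7 CPM in the Poxn-labelled libraries, against 459, 0.190 and 803 CPM in control replicates 1, 2 and 3. Control replicates 1 and 3 stood far above every Poxn-labelled library and control replicate 2, with 1 count, far below, so that the groups overlapped. The log2 fold change was -3.87 with a standard error of 1.64 and an adjusted p of 0.146 by edgeR. Without control replicate 2 it was -4.44 with a standard error of 0.46 and an adjusted p of 0.00371 by edgeR, past the criterion of the study. Cpr92A is among the 13 genes picked for a low level in that library, so this call is no support. Without control replicate 3 it was -3.04, a smaller change than that of Cpr65Au. With library totals in place of TMM it was the only Cpr gene to pass that criterion with all 6 libraries, at -2.86 and an adjusted p of 0.00882 by edgeR, where 0.702% of all tested genes passed in that direction.

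Cpr65Au, the second largest change, stood at 14651, 9839 and 13895 CPM in the Poxn-labelled libraries, against 418186, 44532 and 28574 CPM in control replicates 1, 2 and 3. The groups did not overlap under TMM, and control replicate 1 stood far above the rest. The log2 fold change was -3.68 with a standard error of 1.89 and an adjusted p of 0.218 by edgeR, and -4.22 with an adjusted p of 0.0387 without control replicate 3, while without control replicate 1 it was -1.51. DESeq2 gave an adjusted p of 0.000619. By library totals its levels were 25741, 18300 and 25885 CPM, against 102896, 23245 and 36545 CPM, and control replicate 2 then lay inside the Poxn range.

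Cpr49Ae, on 2R, had 339, 164 and 425 CPM in the Poxn-labelled libraries, against 6428, 43.4 and 1928 CPM in control replicates 1, 2 and 3. Cpr97Eb, on 3R, had 162, 107 and 132 CPM, against 899.6, 3.61 and 1483 CPM. Cpr62Bc, on 3L, had 52.2, 32.5 and 40.7 CPM, against 194, 0.761 and 539 CPM. Under TMM all 3 genes had the same shape as Cpr92A, with control replicates 1 and 3 above and control replicate 2 below every Poxn-labelled library. With library totals control replicate 1 stayed above for Cpr49Ae, at 1582 CPM. For Cpr97Eb it was then inside the Poxn range, at 221 CPM against 200 to 285 CPM. For Cpr62Bc it was then below that range, at 47.6 CPM against 60.4 to 91.7 CPM. The log2 fold changes of Cpr49Ae, Cpr97Eb and Cpr62Bc under TMM were -3.18, -2.57 and -2.55, with adjusted p-values of 0.154, 0.238 and 0.243 by edgeR. The fold change of Cpr49Ae leaned on control replicate 1, without which it was -1.66.

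Cpr100A, on 3R, had 102, 53.8 and 78.2 CPM in the Poxn-labelled libraries, against 694, 0 and 914 CPM in the control-labelled ones. Cpr92F, on 3R, had 391, 144 and 206 CPM, against 2405, 0.951 and 1642 CPM. Cpr97Ea, the neighbour of Cpr97Eb, had 13.4, 9.83 and 13.2 CPM, against 24.5, 0 and 135 CPM. The shape under TMM was again the same, and the adjusted p-values with all libraries were 0.292, 0.335 and 0.308 by edgeR at log2 fold changes of -2.78, -2.45 and -2.14. Cpr49Ah had 18.9, 14.3 and 14.9 CPM in the Poxn-labelled libraries, against 39.6, 0 and 296 CPM in the control-labelled ones. Cpr50Cb had 18, 9.34 and 16.5 CPM, against 112, 0.380 and 141 CPM. Both lie on 2R and had log2 fold changes of -2.81 and -2.53 that did not pass the test (adjusted p = 0.238 and 0.199 by edgeR). Single control libraries carried some of these values, since without control replicate 3 the log2 fold change was -0.016 for Cpr97Ea and -0.33 for Cpr49Ah, and without control replicate 1 it was -1.73 for Cpr92F. With library totals control replicate 1 lay inside the Poxn range for Cpr100A, Cpr92F and Cpr50Cb. It lay below that range for Cpr97Ea and Cpr49Ah.

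Left without control replicate 2, the test called many more of these genes. It then kept 30 Cpr genes, of which 15 were lower in the Poxn-labelled libraries and 1 was higher at an adjusted p under 0.05, where 16.1% of all tested genes were lower and 12% higher. The control arm then held 2 libraries. That library was singled out because many Cpr genes were low in it, so the rise in calls follows in part from that choice. The added calls are a description and no support. The genes that fell were Cpr47Ef, Cpr49Ae, Cpr49Ah, Cpr50Cb, Cpr51A, Cpr60D, Cpr62Ba, Cpr62Bc, Cpr64Ac, Cpr72Ec, Cpr92A, Cpr92F, Cpr97Ea, Cpr97Eb and Cpr100A. Cpr72Ec entered this test only once the control library where it had 0 counts was left out, through the 2 in which it was high, so its call is no support, and 14 genes were lower besides it. Cpr92A and Cpr50Cb met the criterion of the study, which 1.03% of all tested genes met in that direction. Over the 30 genes the log2 fold change had a median of -1.49, against 0.083 over all genes. With library totals and control replicate 2 left out, 9 Cpr genes were lower and 0 higher at an adjusted p under 0.05, where 1.16% of all tested genes were lower and 1.96% higher, and 3 met the criterion of the study, as 0.715% of all tested genes did. With the length adjustment and without that library the numbers were again 9 and 0, where 5.93% and 2.1% passed, and 1 met the criterion, as 0.693% did. Besides Cpr72Ec, the genes called lower numbered 8 in each of these settings. These 2 settings were chosen once the values were known.

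Other tools and libraries gave other sets of calls. DESeq2 called 7 Cpr genes lower and 1 higher at an adjusted p under 0.05, where it called 16.7% and 8.01% of all tested genes, and 2 met the criterion of the study, as 7.5% did. The 7 were Cpr47Ef, Cpr49Ae, Cpr51A, Cpr60D, Cpr64Ac, Cpr65Au and Cpr92A. With library totals edgeR called 2 lower (Cpr65Au and Cpr92A) and 1 higher (Cpr73D), where 1.06% and 4.74% of all tested genes passed. With the length adjustment it called 0 in either direction, where 1.75% passed as lower and 0.635% as higher, while 2 were lower and 0 higher at an unadjusted p under 0.05. Without control replicate 3 it called 3 lower (Cpr51A, Cpr60D and Cpr65Au) and 3 higher (Cpr47Ee, Cpr64Aa and Cpr73D), where 11.9% and 7.97% of all tested genes passed. Cpr47Ee and Cpr64Aa passed the filter of that fit through the Poxn-labelled libraries, in which they were higher, so their calls are no support.

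**Figure D4:**
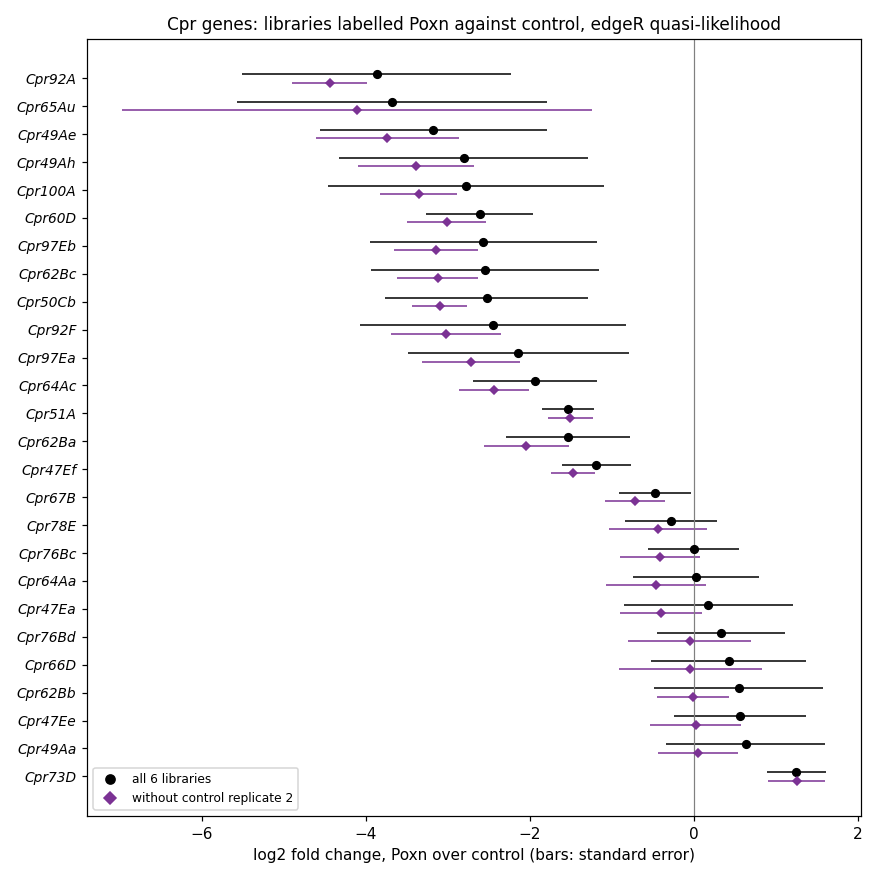
The log2 fold change of Poxn over control for the 26 tested Cpr genes, from edgeR's quasi-likelihood fit with all 6 libraries (black circles) and without control replicate 2 (purple diamonds), with bars of 1 standard error. The bars of Cpr92A, Cpr100A and Cpr97Eb shrink when control replicate 2 is left out, while Cpr65Au has a wider bar, and Cpr73D is the gene farthest above 0 in both fits.

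Counted by overlap of the libraries, with no model, 4 of the 26 genes had all 3 Poxn-labelled libraries below all 3 control-labelled ones under TMM, where 17.9% of all tested genes did. These were Cpr65Au, Cpr60D, Cpr47Ef and Cpr51A. One gene, Cpr73D, lay above in all 3, where 22.5% of all tested genes did. Without control replicate 2 on the same scale, 15 genes lay below and 1 above, where 27.7% and 34.8% of all tested genes did. That library was left out because many Cpr genes were low in it, so these numbers are only a description. With library totals and all 6 libraries, 0 of the 26 genes lay below and 1 above, where 2.72% and 57.8% of all tested genes did, and 4 lay below without control replicate 2 (Cpr65Au, Cpr49Ae, Cpr92A and Cpr60D), where 5.04% of all tested genes did.

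Cpr73D, named here after its values were seen, had the largest fold change above 0 of the 26 genes and did not pass the test with all libraries. It had 112, 132 and 96.6 CPM in the Poxn-labelled libraries, against 34.9, 47.7 and 60.8 CPM in the control-labelled ones. The groups did not overlap, and control replicate 2 lay between its 2 companions. The log2 fold change was 1.25 with a standard error of 0.36 and an adjusted p of 0.0629 by edgeR, just outside the threshold, and 0.0348 without control replicate 2. With the length adjustment it was 0.62 with a standard error of 0.32 and an adjusted p of 0.273 by edgeR, and without control replicate 1 it was 1.07 with an adjusted p of 0.0907. Cpr73D shares 294 of 3030 exonic bases with Ogdh, a subunit gene of the mitochondrial oxoglutarate dehydrogenase on the opposite strand. Ogdh had 61.0, 89.1 and 63.0 CPM in the Poxn-labelled libraries, against 44.6, 63.7 and 35.5 CPM in the control-labelled ones, and its part in the counts of Cpr73D was not tested.

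The abundant members Cpr62Bb and Cpr67B, and Cpr66D at a much lower level, did not pass the test in either direction. Cpr62Bb had 305, 267 and 231 CPM in the Poxn-labelled libraries, against 180, 5.89 and 366 CPM in control replicates 1, 2 and 3. Its log2 fold change was 0.54 with a standard error of 1.03, and -0.018 with a standard error of 0.44 without control replicate 2. It lies in band 62B beside Cpr62Bc, whose log2 fold change without that library was -3.12. Cpr67B, on 3L, had 74.5, 85.2 and 63.8 CPM in the Poxn-labelled libraries, against 79.8, 63.5 and 167 CPM in the control-labelled ones, and was present in control replicate 2 at 38.1% of its level in control replicate 3. Its log2 fold change was -0.48 with a standard error of 0.44, and 0.62 with library totals. Cpr66D had 4.14, 3.92 and 1.57 CPM, against 0, 0.570 and 5.53 CPM, with a log2 fold change of 0.42 and a standard error of 0.94.

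The other tested genes, which the naming rule did not pick, had log2 fold changes between -1.94 for Cpr64Ac and 1.25 for Cpr73D. Cpr47Ef had 42.8, 36.9 and 53.95 CPM in the Poxn-labelled libraries, against 131, 55.1 and 119 CPM in control replicates 1, 2 and 3. Its groups did not overlap, by a narrow margin at control replicate 2, and its log2 fold change was -1.19 with a standard error of 0.42 and an adjusted p of 0.0946 by edgeR. Cpr64Ac had 11.6, 10.5 and 13.8 CPM, against 33.3, 7.23 and 96.4 CPM, and its groups overlapped through control replicate 2. Cpr62Ba, the least abundant gene of band 62B, had 0.648, 0.565 and 0.727 CPM, against 4.08, 0.190 and 1.81 CPM. Cpr76Bd, with the longest predicted protein of the family at 1231 residues, had 1.37, 0.731 and 0.919 CPM, against 0, 0.190 and 1.53 CPM. Cpr47Ea, Cpr47Ee, Cpr49Aa, Cpr64Aa, Cpr76Bc and Cpr78E lay between -0.29 and 0.63 on the log2 scale, each with a standard error of 0.55 or more.

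The 5 untested genes with the most counts showed how low the rest of the family was. Cpr72Ec had 9, 3 and 4 counts in the Poxn-labelled libraries, against 137, 0 and 55 counts in control replicates 1, 2 and 3. It was high in the 2 control libraries that let it pass the filter without control replicate 2, so these counts are given with no test. Cpr35B had 30, 6 and 7 counts, against 2, 3 and 10 counts. Its highest library was Poxn replicate 1, and the groups overlapped. Cpr64Ad had 20, 11 and 9 counts, against 0, 0 and 15 counts. Cpr23B had 8, 4 and 10 counts, against 2, 0 and 11 counts, and Cpr11B had 7, 7 and 5 counts, against 4, 1 and 2 counts. Apart from Cpr72Ec, no untested gene had more than 30 counts in any library. Members with at least 1 count numbered 50, 47 and 49 in the Poxn-labelled libraries, against 34, 32 and 50 in control replicates 1, 2 and 3. The neighbouring copies Cpr65Ax1 and Cpr65Ax2, and Cpr67Fa1 and Cpr67Fa2, had at most 1 count each over all libraries. Reads that align to more than 1 place were not counted, and their line made up 6.60% to 6.82% of each Poxn-labelled count table, against 12.2%, 5.76% and 12.1% in control replicates 1, 2 and 3. Counts near 0 for such copies may therefore miss reads, and Cpr65Ax1, Cpr65Ax2 and Cpr67Fa1 are among the 12 genes with no count.

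Other genes of the cuticle were low in control replicate 2 in part. Of 29 RR-type genes with other names, 24 had a count and 6 were tested, and 2 of these were under 5% of control replicate 3 in control replicate 2. One was Acp65Aa, an adult cuticle gene named after its values were seen, with 243, 114 and 216 CPM in the Poxn-labelled libraries, against 9261, 4.18 and 2452 CPM in the control-labelled ones. At an adjusted p under 0.05 by edgeR, 1 of the 6 was lower and 1 higher in the Poxn-labelled libraries, where 4.95% and 2.69% of all tested genes were. Lcp65Ag2, the lower one, had 0.648, 0.631 and 0.498 CPM, against 17.3, 34.2 and 4 CPM. Lcp1, a larval cuticle gene and the higher one, had 26, 30 and 23 counts, against 1, 1 and 2 counts. Lcp1 passed the filter only through the Poxn-labelled libraries, where it is high, so its counts are a description and its call is no support. Over the 6 genes the log2 fold change had a median of -1.97. Without control replicate 2, 7 were tested, of which 5 were lower and 1 higher, where 16.1% and 12% of all tested genes were, with a median of -2.96. Ccp84Ad, 1 of the 5, entered the test only once that library, where it had 0 counts, was left out. Of 26 Tweedle genes, which encode cuticle proteins of another family, 4 were tested, with a median log2 fold change of 0.20, and none was called or was under 5% in control replicate 2. Without that library 5 were tested, with a median of -0.24, and the 1 gene then lower, TwdlY, passed the filter only through the 2 control libraries in which it was high.

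Of the 22 genes found for chitin synthesis, assembly and modification, 20 were tested and 8 were under 5% of control replicate 3 in control replicate 2. They were serp, verm and Cda4, which encode chitin deacetylases, obst-A, obst-B and Gasp, which encode chitin-binding proteins, and the chitinase genes Cht2 and Cht7. Of the 20, 2 were lower in the Poxn-labelled libraries at an adjusted p under 0.05 by edgeR and 0 were higher, beside the 4.95% and 2.69% of all tested genes. These were rtv and exp, both known for chitin organisation in the tracheae, with log2 fold changes of -1.43 and -2.70, while the median of the 20 genes was -0.041. Without control replicate 2, 21 were tested, of which 4 were lower and 0 higher, where 16.1% and 12% of all tested genes were, with a median of -0.47. One of the 4, knk, passed the filter only through the 2 control libraries in which it was high. The log2 fold changes of rtv and exp were then -1.46 and -3.02. Of 13 genes found for tanning and crosslinking, such as ple for tyrosine hydroxylase, 12 were tested, with a median log2 fold change of -0.44, none was called, and 1, yellow-d2, was under 5% in control replicate 2. Without that library 2 of the 12 were lower and 0 higher, where 16.1% and 12% of all tested genes were, with a median of -0.71.

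**Figure D5:**
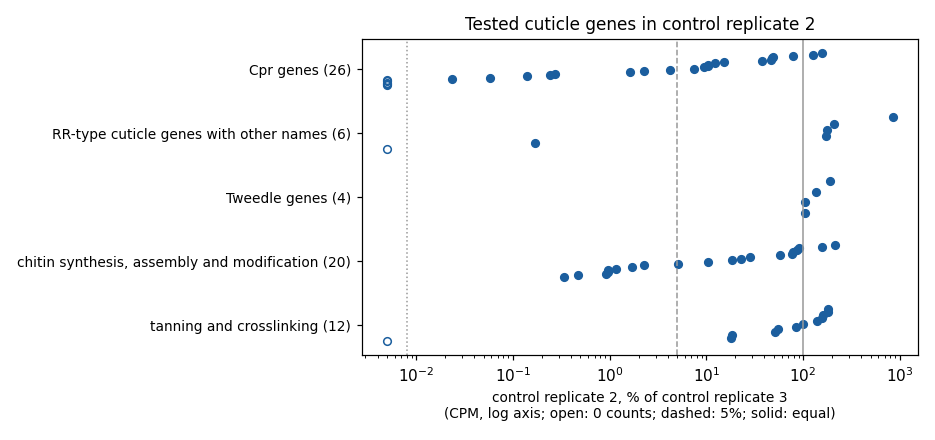
Level in control replicate 2 as a percentage of the level in control replicate 3, on a log axis, for each tested gene of 5 cuticle gene lists, with the number tested in brackets (open symbols are 0 counts, the dashed line is 5% and the solid line is equal levels). Points left of the dashed line number 13 of 26 for the Cpr genes, 2 of 6 for other RR-type genes, 0 of 4 for Tweedle genes, 8 of 20 for chitin genes and 1 of 12 for tanning genes.

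Markers of the cells that a wing can hold were read beside these values. All 5 wing epidermis markers (nub, vg, sd, ap and bs) were present, with a summed level of 113 to 124 CPM in the Poxn-labelled libraries, against 105, 143 and 91.2 CPM in control replicates 1, 2 and 3. The members of this sum did not move together, since control replicate 2 was highest for nub and ap, at 66.6 and 21.3 CPM, while vg was highest in control replicate 1 at 23.6 CPM, sd in Poxn replicate 1 at 45.5 CPM, and bs, at 2.47 CPM in control replicate 2, was below every Poxn-labelled library. The 5 neuron markers summed to 116 to 136 CPM in the Poxn-labelled libraries, against 83.3 to 97.0 CPM in the control-labelled ones. That difference was carried by nSyb, with means of 79.7 and 30.5 CPM, and nompC (6.53 and 4.99 CPM) was also higher in the Poxn-labelled libraries. By their means elav (12.2 and 15.7 CPM), Syt1 (23.8 and 24.8 CPM) and brp (4.60 and 14.8 CPM) were lower there. The list had a median log2 fold change of -0.049. The 6 flight muscle markers summed to 130 to 322 CPM, against 152 to 235 CPM, and the 3 glial markers to 943 to 1221 CPM, against 4785, 1663 and 894 CPM. Nearly all of the glial sum was Gs2, at 1078, 907 and 1181 CPM, against 4770, 1629 and 876 CPM, while repo (10.8 and 7.46 CPM) and moody (27.4 and 14.6 CPM) had higher means in the Poxn-labelled libraries. The 4 hemocyte markers, which mark blood cells, summed to 19.8 to 32.8 CPM in the Poxn-labelled libraries, against 66.0, 77.4 and 31.3 CPM in the control-labelled ones, and the 5 fat body markers to at most 1.03 CPM, against 2.14 to 3.80 CPM. The part of these cells in the levels of the Cpr genes was not tested.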

How the data were processed

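Wings of 3-day-old flies of 2 genotypes were measured by RNA-seq, with 3 libraries each, grouped by the sample labels. Before they deposited the data, the authors used Trim Galore 0.4.0 for trimming and STAR 2.4.2a for alignment against FlyBase release r6.09. The deposited values are raw counts per gene for each library, not normalized. The submitters' processing notes name HTSeq without a version or strand setting. Reads on no gene made up 49.2% to 49.3% of each Poxn-labelled table and 47.9% to 58.6% of each control-labelled one, and lines naming no gene were left out of sizes and tests. The authors' DESeq2 comparison, which holds fold changes and p-values, and its 6 per-library columns were not used.

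The main test was edgeR 4.0.16 in R 4.3.3, as its quasi-likelihood test. Genes were kept by filterByExpr (minimum count 10), libraries were scaled by TMM, fold changes used 0.125 as the prior count, and p-values were adjusted over 8973 genes by Benjamini and Hochberg's method. Log2 levels had a pseudocount of 1 CPM. The scripts were tested on simulated data. The simulation gave every gene and both genotypes the same spread setting, so it does not cover the wider spread of the control-labelled libraries. Alternatives were RLE size factors, library totals, DESeq2 1.42.0, limma 3.58.1 voom with quality weights, robust edgeR, other filters, a prior count of 2, offsets for transcript length, a block for the replicate number, and fits that left 1 library out. FlyBase identifiers of 17229 of the 17476 genes were found in Ensembl's BDGP6 annotation, which gave positions and lengths. Of the list genes, 22 of 23 chitin genes and 13 of 15 tanning genes matched.

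Named were the 12 Cpr genes highest in mean level per kilobase, those past an adjusted p under 0.05, those over 4-fold, the 3 most variable in each genotype and the 5 untested genes with most counts. Other genes named were chosen after their values were seen. The members and lists were chosen with earlier results of these data known.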

Additional observations from a re-analysis of the deposited data

How the results depend on the processing

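The count of Cpr genes past the criterion of the study (more than 4-fold, adjusted p under 0.01) in the higher direction was 0 under all alternatives run. In the lower direction it was 0 with all libraries by edgeR, 1 with library totals and 2 by DESeq2, and ranged from 0 to 2 with 1 library left out. Without control replicate 2 it was 3 with library totals and 1 with length offsets, 2 settings chosen once the values were known. At an adjusted p under 0.05, higher genes numbered 0 in edgeR, 1 with library totals, 1 by DESeq2 and 1 by limma voom, and 0 to 3 with 1 library left out. The 3, without control replicate 3, were Cpr73D and the 2 genes whose calls are no support, Cpr47Ee and Cpr64Aa. Lower genes numbered 2 in edgeR, 7 by DESeq2 and 0 with length offsets, and 0 to 15 with 1 library left out, the 15 being without control replicate 2 (14 besides Cpr72Ec). The 2 added settings gave 9 each. Of all tested genes, the fits with 1 library left out put 0.0328% to 2.44% past the criterion of the study as lower. At an adjusted p under 0.05 they called 0.427% to 16.1% lower and 0.0328% to 12% higher. The median log2 fold change of the Cpr genes, -1.54 in edgeR, ranged from -1.59 to -0.56 with 1 library left out, the smallest change being without control replicate 3, and the cause was not tested.

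Some named genes changed sign. Cpr51A stood at 0.031 with library totals. Cpr67B stood at 0.62 with library totals, 0.078 with length offsets, 0.13 with length offsets and the replicate block and 0.22 with library totals and without control replicate 2, and ranged from -0.72 to 0.016 with 1 library left out, the last being without control replicate 3. With 1 library left out, Cpr62Bb ranged from -0.018 (without control replicate 2) to 1.48, and Cpr66D from -0.048 (without control replicate 2) to 3.16, with -0.029 without control replicate 1. With 1 Poxn-labelled library left out, the adjusted p ranged from 0.159 to 0.194 for Cpr51A and from 0.168 to 0.215 for Cpr60D by edgeR, and the cause of these shifts was not tested.

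The labels give both genotypes replicates 1 to 3, but these samples share only a number. Deviations from the group means correlated at 0.164, 0.149 and -0.097 for the same-numbered pairs, and control replicate 3 correlated better with Poxn replicate 2. With the replicate number as a block, 1 Cpr gene was lower at an adjusted p under 0.05, where 3.93% of all tested genes were, and 0 with the block and length offsets, where 1.75% were. The medians of the Cpr genes and of all genes were then -0.35 and 0.038.

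Depth and scaling differed between the libraries, and their part in the precision was not tested. Control replicate 2 had the fewest counts, 10074860, and the limit for 0 counts was 0.942 CPM in control replicate 1 against 0.0997 to 0.115 CPM in the Poxn-labelled libraries.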
